A study of Drosophila melanogaster with 30 samples.

Results

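The Drosophila annotation gives a CR symbol to genes annotated as non-coding RNAs or pseudogenes, and 283 of them carried enough RNA in the adult midgut to be followed here. They are the genes with a symbol of CR plus digits, a locus of at least 200 bases, an accepted estimate in each of 30 libraries and a mean of at least 2 FPKM (fragments per kilobase of transcript, scaled to the mapped fragments of the library) over those libraries. The tables list 17488 genes, of which 2493 have such symbols, 2476 of these reach 200 bases and 2471 of those had accepted estimates throughout. The members were chosen by that mean level, which is therefore a description and is not tested. Of the 2471 genes, 615 were listed at 0 in all 30 libraries.

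Long non-coding RNAs are transcripts without a long open reading frame. Antisense RNAs come from the opposite strand of another gene and can share sequence with its exons. Other long non-coding RNAs act as hosts from which small nucleolar RNAs (snoRNAs, guides for ribosomal RNA modification) or microRNAs are cut, and pseudogenes are decayed copies of genes. In the fly midgut most such transcripts have no described role, so their levels and the genes they overlap are the main facts at hand.

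The series asked what dietary lipids and Hr96, a cholesterol-responsive nuclear receptor, do to the adult intestine and its development. Poly(A) RNA came from the posterior midgut (labelled p1-4) and the anterior midgut (a1-3) of mated females aged 10 to 12 days, with 30 to 50 dissected regions pooled in each sample. Flies of the strain y[1]w[1] ate a lipid-depleted diet or one high in cholesterol (0.2%, which is 4 times that of the control diet), flies of the strains TI{TI}Hr96[1] and Hr96[2x] ate the control diet, and y[1]w[1] flies on the control diet were the control. The design text calls both Hr96 strains mutants, while their background and what 2x stands for are not given in the sources used here. Each of the 5 conditions in 2 regions had 3 replicates, and the labels do not say that these were separate cultures, so the p-values rest on a spread among samples that may be technical.

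The deposited FPKM hold no counts, so absolute depth is unknown, and steps between low values gave a relative depth of 0.781 to 1.39. All levels below, unless called deposited, are scaled FPKM, that is FPKM divided by a library factor of 1.03 to 1.45 in posterior and 0.537 to 1.2 in anterior libraries. Hr96 itself had 42.1, 40.3 and 33.9 scaled FPKM in anterior Hr96[1], 76.5, 69.3 and 80 in anterior Hr96[2x], and 67.9, 43.4 and 61.2 in anterior controls. Posterior libraries had 38.1, 33.4 and 27.9 in Hr96[1], 73.4, 63.7 and 80.3 in Hr96[2x], and 65.2, 57.8 and 63.1 in controls. The transcript was thus lower than in controls in the posterior Hr96[1] libraries (log2 difference −0.89, adjusted p = 0.0173, limma), and the Hr96[2x] libraries carried as much of it as the controls or more. On both diets Hr96 was higher than in controls in the anterior midgut (lipid-depleted, log2 1.30, adjusted p = 0.00271; high-cholesterol, log2 1.16, adjusted p = 0.00984).

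Both the library kit and the tissue limit what a value of these genes can show. The kit does not mark strand, so reads of an antisense RNA and of the coding exons it lies on cannot be told apart. In tissue samples, fewer cells of a type and less RNA per cell cannot be told apart either.

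Among the 283 members, 181 are annotated as antisense RNAs, 84 as other non-coding RNAs, 13 as pseudogenes and 2 as hairpin RNAs, and 3 now carry the status of protein-coding genes. They lie on 3L (64 genes), 2L (60), 3R (59), X (50), 2R (45) and 4 (3), with 2 on unplaced sequence. The median locus spans 882 bases (201 to 223710) and the median exonic length is 798 bases. A single exon makes up 151 members, and 128 have 2 or more. The loci of 224 members overlap a protein-coding gene and hold no small RNA gene, 53 overlap none, 5 hold snoRNA genes and 1 holds mir-375. By exons the overlap is narrower: for 78 members no coding exon was found, 45 have under 50% of their exonic bases beneath one, and 156 have at least 50%. A coding exon here is any exon of a protein-coding gene, on either strand. A coding gene not matched in the annotation counts as having none, as for CR45798 at Rab1. The positions given here are those of the deposited tables in dm6, and 279 members matched an annotated gene (CR18854, CR40640, CR34335 and CR41544 did not).

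The levels were spread over a wide range. The median member averaged 8.15 deposited FPKM, 17 members averaged at least 100, 119 at least 10, and 164 under 10. Above 0 in all 30 libraries were 243 members, and 133 reached 2 in each library. Just inside the threshold lay CR32218 (2.02 FPKM), CR44897 (2.02) and CR45291 (2.03), and just outside it CR44108 (2.00), CR46096 (1.98) and CR44209 (1.97). For 19 members the mean would fall below 2 without their highest group, among them CR44471 (1.97), CR43310 (1.67) and CR46058 (1.71), so these passed through the group where they were high. That check leaves out a single group, so it misses members carried by several groups, such as CR45714 and CR43242 in the Hr96 strains and CR45468 in y[1]w[1] flies. The width of the deposited confidence limits put the median error of a member's value at 19.5% of it (4.2% to 142%), and the log2(FPKM + 1) scale used for differences understates changes of low genes.

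**Figure D1:**
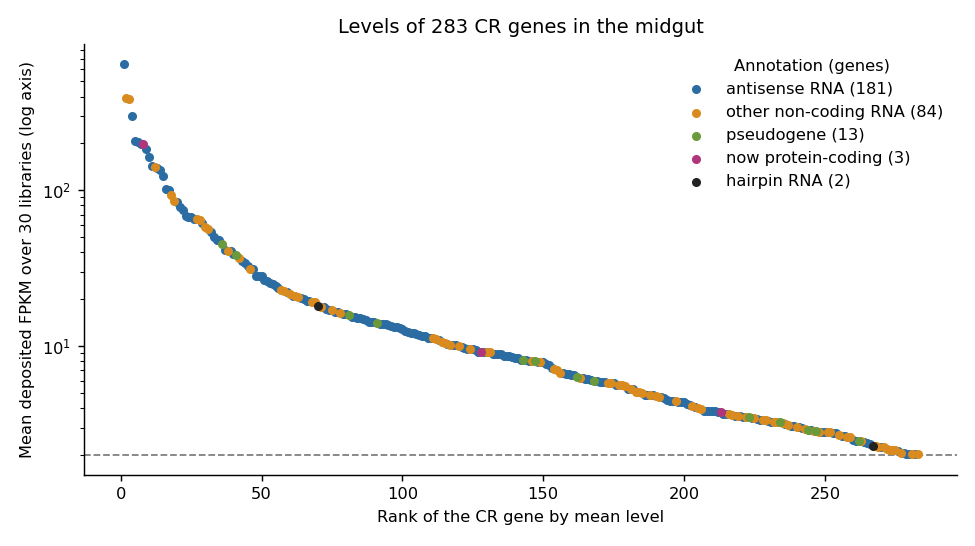
Mean deposited FPKM over 30 libraries (log axis) of the 283 CR genes against their rank, coloured by annotated kind, with the threshold of 2 FPKM as a dashed line. Antisense RNAs and other non-coding RNAs mix along the whole range, and the top of the curve is a short steep stretch of 17 genes at 100 FPKM or more.

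After scaling, the summed level of all members had group means of 6333 to 7695. It was 7062 ± 979 scaled FPKM in posterior and 7349 ± 1682 in anterior midgut on the lipid-depleted diet, 7677 ± 320 and 7695 ± 595 on high cholesterol, 6390 ± 596 and 7567 ± 237 in Hr96[1], 6333 ± 154 and 6651 ± 167 in Hr96[2x], and 7199 ± 1243 and 7636 ± 958 in controls (SD, n = 3, posterior before anterior in each pair). The 10 most abundant members held 27.7% to 50.1% of the members' FPKM, and all members together 0.585% to 1.47% of a library's FPKM. In anterior libraries that share was 0.636% to 0.864% in Hr96[1] and 0.585% to 0.690% in Hr96[2x], against 0.894% to 1.12% in controls. Posterior libraries had 0.673% to 0.940% and 0.752% to 0.952%, against 1.01% to 1.09%. On the lipid-depleted diet the posterior share was higher, at 1.10% to 1.47%.

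The most abundant of these genes, CR46071 (2L:8934796-8935720), has 96.4% of its exonic bases under coding exons and runs antisense to the tetraspanin gene Tsp29Fa, its largest overlap. It averaged 651 deposited FPKM, with 460 to 1084 scaled FPKM (median 752) in posterior and 271 to 761 (median 483) in anterior libraries. Its log2 difference, posterior minus anterior, was 0.56 (SE 0.12, adjusted p = 0.000724), and that of Tsp29Fa was 0.63 (adjusted p = 0.00142). In controls alone CR46071 was not called (adjusted p = 0.138).

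CR40469 (X:122493-122706) overlaps no coding gene and was the next highest, at 394 deposited FPKM. In the anterior midgut it had 47.7, 28.3 and 29.3 scaled FPKM in Hr96[2x], against 830, 198 and 268 in controls. Posterior libraries had 50.9, 23.3 and 25.6 in Hr96[2x], against 764, 396 and 391 in controls. The groups did not overlap in either region, and each Hr96[2x] library lay far below the lowest control. The log2 differences were −3.34 (SE 0.69, adjusted p = 0.00147) and −3.93 (SE 0.69, adjusted p = 0.000405). No such gap stood between regions, where the difference was 0.02 (adjusted p = 0.972).

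CR44138 (3R:13376903-13377395), on the opposite strand of an intron of CG9813, averaged 387 deposited FPKM and was lower in posterior (52.8 to 448, median 190) than in anterior libraries (102 to 1733, median 540; log2 −1.49, SE 0.31, adjusted p = 0.000409). It passed the test in anterior Hr96[1] (log2 −2.18, adjusted p = 0.0267), where it had 714, 102 and 111 scaled FPKM against 540, 820 and 1733 in controls. Those groups overlap, since replicate 1 of Hr96[1] lay above the lowest control. Anterior Hr96[2x] had 253, 162 and 212 (log2 −2.15, adjusted p = 0.0346). The Hr96[1] call was lost without control replicate 2 or 3 (0.0533 and 0.129), Hr96[1] replicate 2 or 3 (0.137 and 0.139) or the other groups (0.146). That of Hr96[2x] was lost without control replicate 2 or 3 (0.0678 and 0.173), each Hr96[2x] replicate in turn (0.0596 to 0.106) or the filter (0.0578), and the region call in controls alone (0.144).

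Several of the top members lie on genes of protein synthesis. CR45874 (3L:9510017-9510889), opposite the ribosomal protein gene RpS9, ran from 177 to 378 scaled FPKM in posterior and 217 to 614 in anterior libraries (log2 −0.50, adjusted p = 0.000188). In anterior Hr96[1] it had 379, 581 and 614, against 304, 274 and 260 in controls (log2 0.88, SE 0.22, adjusted p = 0.00566), and RpS9 rose by log2 1.04 (adjusted p = 0.00219), though as deposited CR45874 was not called there (adjusted p = 0.139). CR31144 (3R:11222414-11223029), opposite RpL3, was likewise lower in the posterior midgut (log2 −0.49, adjusted p = 0.00207). CR45141 on 2R, opposite the aspartyl-tRNA synthetase gene Aats-asp, was lower in posterior than in anterior midgut (log2 −0.58, adjusted p = 1.53e-06) and fell in both Hr96 strains in both regions, with log2 differences of −0.77 anterior and −0.81 posterior in Hr96[1], and −1.17 and −0.95 in Hr96[2x] (adjusted p = 5.81e-05 to 0.00319). Aats-asp fell in the same 4 comparisons. The region difference of CR45141 was 0.03 with no call on FPKM as deposited.

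The remaining members of the top 10 had other partners. CR44431 (X:21043550-21044024) lies opposite Mgstl, a microsomal glutathione S-transferase, and was higher in the posterior midgut (log2 0.65, adjusted p = 0.000125). CR44144 (2L:11743746-11744422) lies opposite Vha100-5, a subunit of the proton-pumping V-ATPase, and was lower there (log2 −0.79, adjusted p = 0.000641). CR45798 (3R:21266255-21267390), annotated as antisense at Rab1, a GTPase of the secretory pathway, did not pass the test between regions (log2 0.19, adjusted p = 0.128). Its overlap with exons of Rab1 could not be measured, as Rab1 was not matched in the annotation used. CR43051 (2L:12507939-12508504) did not pass either (log2 −0.19, adjusted p = 0.0932). In controls alone CR44431 (adjusted p = 0.531) and CR44144 (0.501) were not called, nor was CR44144 as deposited (0.237).

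Of the 6 hosts of small RNA genes 5 were called lower in the posterior midgut, as were 23.4% of all tested genes. CR45345 (2L:857403-857795) holds mir-375 and had 0.4 to 3.37 scaled FPKM (median 1.03) in posterior, against 2.24 to 13.9 (median 5.91) in anterior libraries (log2 −1.61, SE 0.18, adjusted p = 6.82e-08). The snoRNA hosts CR45874 and CR31144 are described above, and CR42491 (X:762615-763810), on the strand of the ribosomal protein gene RpL22, had 48.5 to 112 in posterior and 71.7 to 144 in anterior libraries (log2 −0.45, adjusted p = 0.00296). CR45184 (3L:826720-830190), on the strand of CG13900, with 5 snoRNA genes and 94.7% of its exonic bases under coding exons, passed narrowly (log2 −0.38, adjusted p = 0.0496), and CR43051 did not pass. The call of CR45184 was lost without any one of 22 of the 30 libraries, and on FPKM as deposited CR45184, CR42491, CR45874 and CR31144 stood slightly higher in posterior libraries with no call (log2 0.11 to 0.20). In controls alone these 4 were not called either (adjusted p = 0.283 to 0.723). The small RNAs themselves are not measured by these libraries.

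Both hairpin RNAs, whose transcripts fold back on themselves, were also lower in the posterior midgut and were singled out after their values were seen. CR32207 (3L:19475630-19478720) had 6.9 to 18.4 scaled FPKM in posterior and 12.4 to 56.1 in anterior libraries (log2 −1.25, SE 0.12, adjusted p = 1.05e-08). CR32205 (3L:19422838-19424183) had 0.917 to 2.83 and 1.32 to 6.69 (log2 −0.52, adjusted p = 0.00556), a call lost as deposited (0.489) and in controls alone (0.121). The antisense RNA CR43628, named ASTR and lying opposite Rga, stayed between 11.8 and 23.6 scaled FPKM in all libraries and passed no test. Of the 3 genes now listed as coding, CR45045 (now CG45045) was lower in the posterior midgut (0.345 to 12.4, against 1.62 to 45.4 in anterior libraries; log2 −1.78, adjusted p = 0.000167, and 0.15 in controls alone), and CR44404 (IBIN, a small gene induced on infection) is taken up with the diets.

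Over the 10 groups, the ratio of the highest to the lowest group mean had a median of 2.82. It stayed under 2 for 68 members, with CR45970 (1.29), CR45800 (1.35) and CR44351 (1.38) the most even, and reached 10 or more for 45. The widest were CR44310 (434), CR46058 (253; 0.0429 in anterior high-cholesterol and 10.8 in anterior Hr96[1]), CR17024 (235), CR44996 (159; 0.134 in anterior Hr96[2x] and 21.2 in posterior high-cholesterol) and CR43866 (93.5). Another 6 were listed at 0 in a whole group and have no ratio. The group with the highest mean was posterior lipid-depleted for 59 members and anterior Hr96[2x] for 39. The lowest mean was in anterior Hr96[1] for 53 members and in posterior Hr96[1] for 48. On deposited FPKM, the scale of the membership rule, posterior lipid-depleted was the highest group for 113 members. Such counts were not made for all tested genes, so they are no trait particular to the members.

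The posterior midgut differed from the anterior in about as many of these genes as in genes at large. Averaged over the 5 conditions, 72 members stood higher in posterior libraries and 66 lower, or 25.4% and 23.3%, where 21.8% and 23.4% of the 8335 tested genes passed in those directions (limma, adjusted p under 0.05). The median log2 difference was 0.02 for the members and 0.00 for all tested genes. In each condition alone, 20 were higher and 18 lower on the lipid-depleted diet, 34 and 23 on high cholesterol, 17 and 29 in Hr96[1], 25 and 35 in Hr96[2x], and 23 and 23 in controls, while 12.3%, 17.4%, 14%, 18.9% and 14.7% of all tested genes passed in either direction. With FPKM as deposited the split was 193 higher and 22 lower, as that scale shifts the median of all genes by 0.52 towards the posterior libraries, so directions here are relative to the typical gene.

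**Figure D2:**
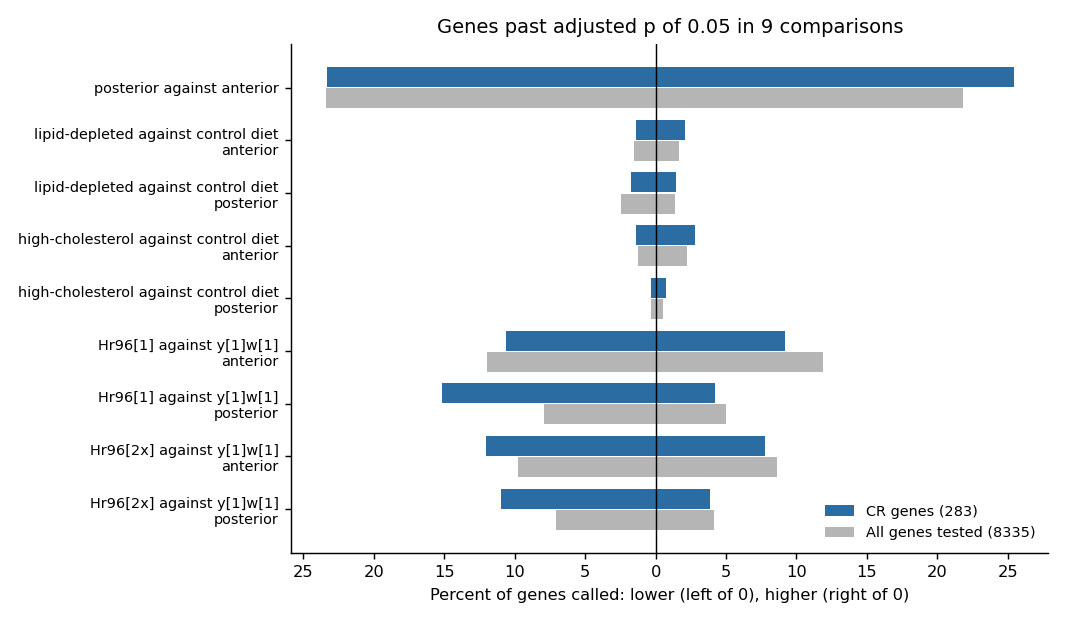
Percent of genes lower (left) and higher (right) at adjusted p under 0.05 in each of 9 comparisons, for the 283 CR genes and for all 8335 tested genes. The CR bars match the others closely between regions, and extend past them among genes lower in posterior Hr96[1] (15.2% against 7.89%) and in Hr96[2x] (anterior 12.0% against 9.77%, posterior 11% against 7.08%).

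Among members higher in the posterior midgut, the largest difference was at CR17024 (2L:12453664-12454951), a pseudogene away from any coding gene. It had 0.965 to 19.3 scaled FPKM (median 10.6) in posterior libraries and 0 to 1.68 (median 0.238) in anterior ones, with log2 2.70 (SE 0.18, adjusted p = 8.88e-12). Its lowest posterior values, 0.965, 1.63 and 1.61, were those of Hr96[1], against 5.63, 9.97 and 10.6 in posterior controls (log2 −1.99, adjusted p = 0.00143). CR44703 on 2R, opposite the chitinase gene Cht9, had 33.8 to 309 in posterior and 6.24 to 120 in anterior libraries (log2 2.62, SE 0.32, adjusted p = 3.69e-07), and Cht9 differed by 2.58. CR45013 (2L:11835320-11835903), opposite the phosphodiesterase gene Pde1c, had 2.4 to 48.7 and 0 to 5.19 (log2 2.42, SE 0.20, adjusted p = 5.18e-10), and Pde1c differed by 2.32. These 3 overlapped between regions at the edges of their ranges.

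CR45205 (3R:10060666-10061978) lies opposite Npc2c, of the NPC2 family of sterol-binding proteins, and was at or near 0 in the anterior midgut. It had 0.0278 to 55.6 scaled FPKM (median 2.59) in posterior libraries and 0 to 0.294 (median 0) in anterior ones, and was listed at 0 in all 3 anterior Hr96[2x] libraries. The log2 difference on the log2(FPKM + 1) scale was 2.37 (SE 0.35, adjusted p = 7.24e-06), and Npc2c differed by 3.33. In controls alone the call was lost (log2 1.60, adjusted p = 0.218).

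Among members lower in the posterior midgut, CR44310 (2L:3616296-3617619), which overlaps no coding gene and lies near Dot, had 0 to 2.87 scaled FPKM (median 0.074) in posterior and 8.17 to 30.2 (median 12.7) in anterior libraries (log2 −3.49, SE 0.17, adjusted p = 2.72e-14). CR45133 on 2R, opposite the potassium channel gene KCNQ, had 5.92 to 22.9 and 52.3 to 255 (log2 −3.33, SE 0.16, adjusted p = 2.16e-14), while KCNQ differed by −1.61. CR44874 (2L:10051362-10052289), next to CG33301, had 0.428 to 2.46 and 3.86 to 39 (log2 −2.33, SE 0.18, adjusted p = 1.89e-10).

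CR43866 (2L:6004167-6006333), opposite the beta-galactosidase gene Gal, had 0.17 to 21.8 scaled FPKM (median 2.05) in posterior and 14 to 151 (median 29.1) in anterior libraries (log2 −3.43, SE 0.32, adjusted p = 4.85e-09). Gal differed by −3.85. The highest posterior values of CR43866, 16.5 and 21.8, came from replicates 2 and 3 on high cholesterol, whose anterior libraries were also the highest (85, 133 and 151). Of all 138 called members, 7 (5.07%) had no overlap between the 15 posterior and the 15 anterior libraries, against 237 of 3765 called genes overall (6.29%).

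**Figure D3:**
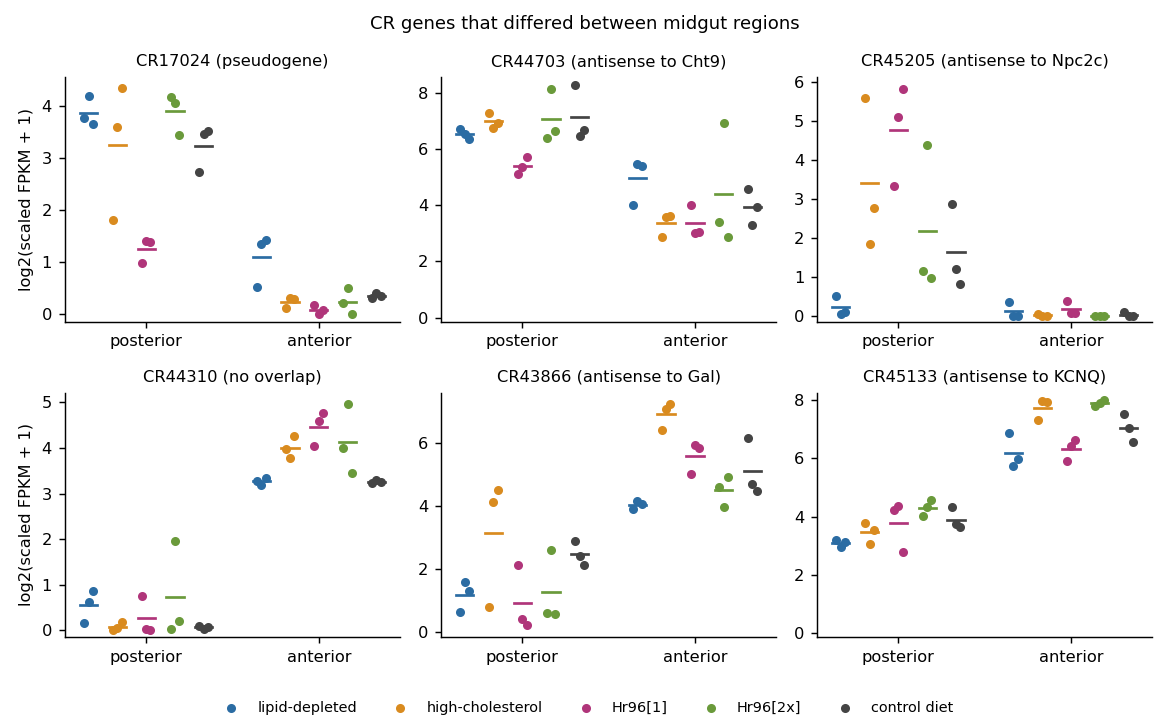
Log2(scaled FPKM + 1) in each library for 6 CR genes with large differences between regions, posterior groups left of anterior groups, with bars at group means. CR17024, CR44703 and CR45205 are high in posterior libraries, and CR44310, CR43866 and CR45133 in anterior ones. Some libraries of CR17024, CR44703, CR45205 and CR43866 overlap between regions.

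Between regions and strains, most called antisense members had a coding partner called in the same direction. For 162 of them that gene was also tested, and between regions 76 of the 162 were called: the coding gene was called in the same direction for 64, not called for 11 and called in the opposite direction for 1, CR44224 (log2 0.43, against −0.16 for Myo31DF), whose call was lost without any one of 22 of the 30 libraries. In Hr96[1] the counts were 19 same, 1 opposite and 11 not called of 31 in the anterior midgut, and 15, 1 and 8 of 24 in the posterior. In Hr96[2x] they were 18, 0 and 6 of 24, and 10, 0 and 3 of 13. On the diets fewer were called: the partner was called in the same direction for 5 of 6 anterior and 1 of 3 posterior members on the lipid-depleted diet, and for 5 of 8 and 0 of 1 on high cholesterol. Of the 86 members not called between regions 21 had a called partner, as did 20 of 131 in anterior Hr96[1]. Across these 162 genes the correlation of the pair's log2 differences was 0.63 to 0.91 over 9 comparisons, given as a description, since both values come from the same libraries and from reads without strand. A median of 76.7% of the exonic bases of such a member lay under a coding exon. The ratio of the member's mean level to that of its partner had a median of 0.936 over 170 pairs, with 82 members above their partner and 13 under 0.1 times it, and ran from 0.0053 (CR45140) to 47.7 (CR45000).

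The pair that moved in opposite directions in both regions was CR44192 (3R:10052846-10054298) and Npc2e, a sterol-binding protein gene of the NPC2 family. In posterior Hr96[1], CR44192 had 15.1, 12.3 and 15.4 scaled FPKM, against 44.2, 31.5 and 30.2 in controls (log2 −1.24, adjusted p = 0.0018). Npc2e there had 9405, 11856 and 18139, against 1682, 2809 and 3156 in controls (log2 2.36, adjusted p = 4.44e-05). In anterior Hr96[1], CR44192 had 7.97, 5.58 and 5.72, against 14, 7.85 and 15 in controls (log2 −0.81, adjusted p = 0.0226, with 1 overlapping library in each group), and Npc2e differed by 3.04 (adjusted p = 1.11e-06). The anterior call of CR44192 was lost without control replicate 1 or 3 (0.0925 and 0.111), Hr96[1] replicate 2 or 3 (0.0882 each), at a pseudocount of 5 (0.0539) or without the other groups (0.105).

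**Figure D4:**
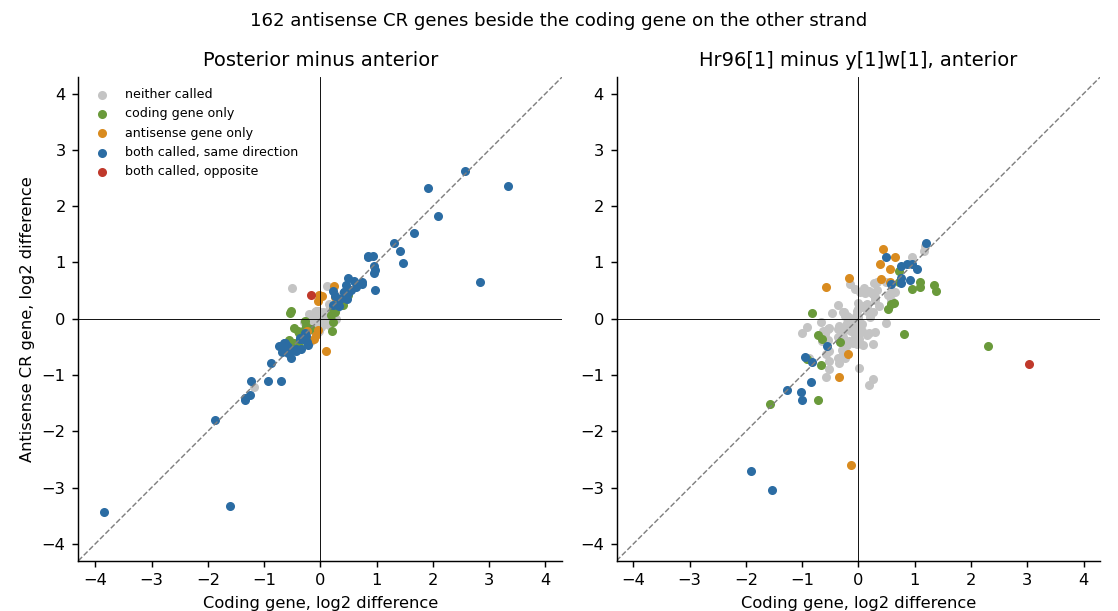
Log2 difference of 162 antisense CR genes (vertical) against that of the coding gene on the other strand (horizontal), posterior minus anterior (left) and anterior Hr96[1] minus anterior y[1]w[1] (right), coloured by which of the pair was called, with a dashed line of equality. Points follow the line between regions, and scatter further from it in Hr96[1], where CR44192 lies far to the right at 3.04 and −0.81.

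The lipid-depleted diet was set against the control diet to ask what a lack of dietary lipid changes. It moved few of these genes: 6 rose and 4 fell in the anterior midgut, 2.12% and 1.41% of members, where 1.66% and 1.51% of all tested genes passed. The posterior midgut had 4 rises and 5 falls, 1.41% and 1.77%, against 1.39% and 2.44% of all tested genes. Of the called members 5 were called in the same direction in both regions, which is 50% of the anterior and 55.6% of the posterior calls, while over all tested genes 83 were, of 264 anterior and 319 posterior calls. The member counts include CR44471, a member only through posterior lipid-depleted libraries, which was called higher in both regions. The anterior count was 4 without control replicate 2 and 5 with only the compared groups in the fit. The posterior count was 4 when control replicate 1 was left out and 5 when lipid-depleted replicate 2 was, and on FPKM as deposited the anterior split was 11 and 2 (all-gene median 0.12).

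CR44471 (X:5433439-5435797), which overlaps no coding gene and lies next to CG15784, is a member only through posterior lipid-depleted libraries, without which its mean is 1.97 deposited FPKM, so its values are given as a description. It had 12.3, 9.79 and 7.21 scaled FPKM on the lipid-depleted diet and 2.48, 0.449 and 0.587 in controls of the anterior midgut (log2 2.40, SE 0.31), and 10.3, 9.72 and 10.4 against 1.43, 1.24 and 1.83 in the posterior (log2 2.16, SE 0.31). It was listed at 0 in all anterior libraries of both Hr96 strains. CG15784 passed in the anterior midgut (log2 1.43, adjusted p = 0.0131).

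CR42874 (2L:1989450-1990894), near the odorant-binding protein gene Obp22a, rose in both regions. It had 9.73, 6.35 and 8.88 scaled FPKM on the lipid-depleted diet, against 2.84, 2.15 and 2.8 in anterior controls (log2 1.36, SE 0.20, adjusted p = 0.000243), and 13.5, 16.9 and 13.6, against 3.26, 3.2 and 4.42 in posterior controls (log2 1.77, SE 0.20, adjusted p = 5.74e-06). On high cholesterol, a comparison that shares the control libraries, it rose in the anterior midgut by log2 0.94 (adjusted p = 0.00974). That call did not survive leaving out control replicate 2 (0.0623), high-cholesterol replicate 2 or 3 (0.0654 and 0.0719), or the other groups (0.114), nor FPKM as deposited (0.143). Both lipid-depleted calls held without any one library and under every other setting tried.

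The other rises on this diet were in antisense RNAs. In the anterior midgut CR44192 had 39.9, 26.6 and 28.7 scaled FPKM, against 14, 7.85 and 15 in controls (log2 1.33, SE 0.25, adjusted p = 0.00275; 0.102 with only the compared groups), while Npc2e rose by log2 2.87. CR44052 (3R:23706361-23707146), opposite the glucocerebrosidase gene CG31414, had 10.3, 4.2 and 5.81, against 1, 0.759 and 0 (log2 2.28, SE 0.49, adjusted p = 0.01), and lost the call without lipid-depleted replicate 1 (adjusted p = 0.0611), control replicate 3 (0.0568) or the other groups (0.06). CR46050 (3L:11229029-11229437), opposite CG42671, had 48.7, 141 and 44.9, against 29.2, 26.6 and 38.2 in posterior controls (log2 1.10, SE 0.28, adjusted p = 0.0249). That rise leans on replicate 2: without it the adjusted p was 0.169, without control replicate 1 it was 0.105, without control replicate 2 it was 0.116, and with only the compared groups 0.329.

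CR43786 on 2R, opposite CG10082, rose in both regions, by log2 0.88 (adjusted p = 0.0104) in the anterior and 0.71 (SE 0.19, adjusted p = 0.0367) in the posterior midgut. Its posterior values of 37.8, 37.5 and 36.1 scaled FPKM stood clear of 24.8, 20.4 and 22 in controls. The posterior call was lost without each of the 6 libraries of the comparison in turn (adjusted p = 0.0731 to 0.153), and the anterior call without control replicate 2 (0.0662).

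CR14033 (2L:5242699-5244239), a pseudogene on the strand opposite the Dpp receptor gene tkv, fell on the lipid-depleted diet in both regions. It had 2.81, 3.52 and 3.34 scaled FPKM, against 7.51, 10.5 and 8.66 in anterior controls (log2 −1.22, SE 0.28, adjusted p = 0.0149), and 1.27, 1.94 and 0.963, against 9.38, 7.98 and 6.46 in posterior controls (log2 −1.91, SE 0.28, adjusted p = 0.000163). Leaving out anterior control replicate 2 (adjusted p = 0.0979) or lipid-depleted replicate 1 (0.0611) ended the anterior call. tkv itself differed by 0.01 and 0.11 and was not called in either region.

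CR44618 (2L:10542860-10543522), away from coding genes, also fell in both regions. It had 1.72, 0.936 and 1 scaled FPKM, against 3.57, 4.26 and 4.15 in anterior controls (log2 −1.18, SE 0.30, adjusted p = 0.0326), and 1.12, 0.982 and 1.06, against 5.1, 3.85 and 3.27 in posterior controls (log2 −1.29, adjusted p = 0.0151). The anterior call was lost without control replicate 1, 2 or 3 (adjusted p = 0.0645, 0.13 and 0.0812), lipid-depleted replicate 2 or 3 (0.126 and 0.116), at a pseudocount of 5 (0.0766) and with no filter (0.0546). The posterior call needed control replicate 1 (0.0989 without it) and lipid-depleted replicates 2 and 3 (0.0611 and 0.0554 without them in turn).

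CR44865 (2L:15610171-15610746), opposite CG15255, fell in the posterior midgut to 12.5, 13.6 and 9.39 scaled FPKM, against 37.8, 29.7 and 25 in controls (log2 −1.30, SE 0.25, adjusted p = 0.00294), with CG15255 at −1.55. CR45943 (3L:20838313-20838700), opposite CG13255 and with all its exonic bases under coding exons, had 60.8, 32.7 and 45.3, against 229, 136 and 87 (log2 −1.61, SE 0.35, adjusted p = 0.00749), with CG13255 at −1.76. CR45943 missed the threshold when control replicate 1 (adjusted p = 0.0789), lipid-depleted replicate 2 (0.0597) or the other groups (0.129) were left out.

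In the anterior midgut CR45830 (3L:4655405-4656330) and axo, the axotactin gene on its other strand, fell together. CR45830 had 0.735, 2.28 and 1.5 scaled FPKM, against 9.13, 5.29 and 3.97 (log2 −1.49, SE 0.35, adjusted p = 0.0167), and axo differed by −1.62. CR44368 on 2R, opposite CG18324, had 16, 17.9 and 19.7, against 31.9, 45 and 33.9 (adjusted p = 0.0195). CR45830 missed the threshold when control replicate 1 or 2 (adjusted p = 0.107 and 0.0546) or lipid-depleted replicate 1 or 3 (0.0927 and 0.0546) was left out, as deposited (0.072) or without the other groups (0.123). CR44368 did so for control replicate 2 (0.137) and lipid-depleted replicate 1 or 2 (0.0771 and 0.0632), as deposited (0.151) or without the other groups (0.0549).

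Marker levels also moved on this diet, and their part in these results was not tested. The 8 visceral muscle markers summed to 101 to 128 scaled FPKM in anterior lipid-depleted libraries, against 207 to 264 in controls, and to 162 to 315 against 315 to 399 in the posterior midgut. Of 10 fat body markers, 9 were matched and summed to 178 to 257 against 167 to 1624 in the anterior, and to 83.9 to 226 against 107 to 1912 in the posterior midgut, with replicate 1 the highest control in both. Of 7 enterocyte markers, 6 were matched, Npc2e among them. Their sums, which follow the most abundant gene, were 4154 to 7028 in anterior and 6357 to 8984 in posterior lipid-depleted libraries, against 1283 to 2157 and 3287 to 4190 in controls. The mean log2 level of these 6 was 6.74 to 6.96 in anterior lipid-depleted libraries, against 6.09 to 6.56 in controls. In the posterior midgut it was lower on this diet, at 7.42 to 7.53 against 7.62 to 8.14.

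High cholesterol was set against the control diet to ask what an excess of sterol changes. In the anterior midgut 8 members rose and 4 fell, 2.83% and 1.41%, where 2.24% and 1.27% of all tested genes passed. The posterior midgut had 2 rises and 1 fall, 0.707% and 0.353%, against 0.552% and 0.324% of all tested genes. Calls on this diet depended on single libraries. The anterior count was 2 without high-cholesterol replicate 3, 4 without high-cholesterol replicate 2 or control replicate 2, 6 without control replicate 3 and 22 without high-cholesterol replicate 1. The posterior count was 0 without high-cholesterol replicate 2 or control replicate 2 or 3 (limma, with 19 to 21 members at an unadjusted p under 0.05), 1 without high-cholesterol replicate 3 and 10 without high-cholesterol replicate 1. With only the compared groups in the fit, limma called 0 members in either region, and 45 anterior and 34 posterior members had an unadjusted p under 0.05. As deposited the anterior split was 2 higher and 23 lower (all-gene median −0.47), and the posterior split was 1 and 1 (−0.20).

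CR45215 (3R:8316984-8318006), which overlaps the copper transporter gene Ctr1B on its strand and has 18.1% of its exonic bases under coding exons, rose most. It had 26.5, 31 and 37.4 scaled FPKM on high cholesterol, against 10.8, 6.71 and 4.64 in anterior controls (log2 2.01, SE 0.28, adjusted p = 0.000608). Posterior values were 18.1, 24.5 and 18.8 on high cholesterol, against 6.73, 6.61 and 5.86 (log2 1.53, SE 0.28, adjusted p = 0.00861). The groups were apart in both regions, and Ctr1B differed by 3.72 and 5.51. The posterior call of CR45215 was lost without high-cholesterol replicate 2 (adjusted p = 0.0676) or control replicate 2 or 3 (0.0523 and 0.0555), and without the other groups both calls were (0.125 anterior, 0.0906 posterior).

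CR44404, now named IBIN, was listed at 0 in all 6 high-cholesterol libraries. Anterior controls had 5.82, 8.27 and 3.05 scaled FPKM, and posterior controls 4.84, 3.22 and 7.27 (adjusted p = 0.0182 and 0.0492). It was also listed at 0 in all 3 posterior Hr96[2x] libraries (adjusted p = 0.0078). Its deposited confidence limits were wide, at a median of 115% of the value on either side. The anterior call on high cholesterol was lost without control replicate 2 (0.0923), high-cholesterol replicate 2 or 3 (0.0815 and 0.0999) or the other groups (0.114). The posterior one was lost without each of the 6 libraries in turn (0.0524 to 0.306), at a pseudocount of 5 (0.121), with no filter (0.078) or without the other groups (0.0906).

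Further anterior rises on high cholesterol included CR44192, CR45885 and CR45869. CR44192, opposite Npc2e, had 23.6, 37.8 and 44.7 scaled FPKM, against 14, 7.85 and 15 in controls (log2 1.45, SE 0.25, adjusted p = 0.0027; 0.172 without the other groups). CR45885 (3L:11687344-11688390), opposite the zinc-finger gene Sug (sugarbabe), had 21.6, 43.3 and 35.9, against 18.6, 12.2 and 9.68 (log2 1.25, SE 0.32, adjusted p = 0.0318), with Sug at 1.24. This call disappeared without control replicate 2 or 3 (0.115 and 0.209), high-cholesterol replicate 2 or 3 (0.192 and 0.179), as deposited (0.0571), with no filter (0.0567) and without the other groups (0.203).

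CR45869 (3L:8183583-8183998), opposite the oestrogen-related receptor gene ERR, had 61.9, 97.4 and 126 scaled FPKM, against 43.2, 46.6 and 41.4 (log2 1.05, SE 0.29, adjusted p = 0.0491), with ERR at 0.97. The groups did not overlap, yet the call was lost without 5 of the 6 libraries in turn, control replicates 1 to 3 (0.0823, 0.115 and 0.191) and high-cholesterol replicates 2 and 3 (0.18 and 0.33), and under 5 other settings (0.0773 to 0.196). In the posterior midgut CR45831 (3L:5767321-5768704), opposite the coenzyme A synthesis gene Ppat-Dpck, had 52.1, 69.6 and 62.9, against 40, 36.8 and 33.8 (log2 0.72, SE 0.17, adjusted p = 0.0462). That call was lost without control replicate 2 or 3 (0.158 and 0.272), high-cholesterol replicate 2 or 3 (0.291 and 0.239) and under 3 other settings (0.0536 to 0.295).

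Of the anterior falls, CR42868 on 2R, away from coding genes, had 1.93, 1.03 and 0 scaled FPKM, against 7.98, 6.68 and 9.26 in controls (log2 −2.30, SE 0.45, adjusted p = 0.0056). The call was lost without high-cholesterol replicate 3 (0.0798) or the other groups (0.141). CR44976 (2L:1708452-1709244), opposite CG17660, had 28.7, 22.1 and 18.3, against 42.4, 39.7 and 42.6 (log2 −0.85, SE 0.18, adjusted p = 0.0122). CR45468 on 2R, opposite CG30486, had 3.36, 4.25 and 2.62, against 5.27, 7.31 and 6.49 (log2 −0.74, SE 0.15, adjusted p = 0.0086). The call of CR44976 was lost without control replicate 3 (0.0606), high-cholesterol replicate 2 or 3 (0.0717 and 0.134) or the other groups (0.155), and that of CR45468 without control replicate 2 (0.0621), high-cholesterol replicate 3 (0.0992), the other groups (0.191) or with quantile normalization (0.0574). The ovary and germline markers (10 of 10 matched) summed to 3.34 to 136 in anterior high-cholesterol libraries, highest in replicate 3, against 1.06 to 17.8 in controls. The enterocyte markers summed to 3403 to 5174 in anterior and 7703 to 10287 in posterior high-cholesterol libraries, against 1283 to 2157 and 3287 to 4190 in controls. Their mean log2 level was 6.81 to 6.97 in anterior high-cholesterol libraries, against 6.09 to 6.56 in controls. In the posterior midgut it overlapped, at 7.25 to 8.24 against 7.62 to 8.14. The part of these markers was not tested.

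Both Hr96 strains were set against y[1]w[1] to ask what loss or change of the receptor does. In Hr96[1], 26 members rose and 30 fell in the anterior midgut, 9.19% and 10.6%, where 11.9% and 12% of all tested genes passed. In the posterior midgut 12 rose and 43 fell, 4.24% and 15.2%, against 5.03% and 7.89% of all tested genes. The median log2 difference of members was −0.11 (anterior) and −0.21 (posterior), against 0.01 and 0.00 for all tested genes. Both regions called 30 members in the same direction (7 higher, 23 lower), 53.6% of the anterior and 54.5% of the posterior calls, and 0 in opposite directions. Over all tested genes 728 were shared, 36.5% and 67.6% of the calls. The member counts include CR45714 and CR43242 among the shared rises and CR45468 among the shared falls. Each of these passed the threshold through groups where it was high.

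Of the 78 members with no coding exon found, 5 rose (6.41%) and 14 fell (17.9%) in anterior Hr96[1]. In posterior Hr96[1], 1 rose (1.28%) and 21 fell (26.9%), beside the shares of all tested genes just given (medians −0.33 anterior and −0.57 posterior). Of the 181 antisense RNAs, 21 rose (11.6%) and 14 fell (7.73%) in anterior, and 11 rose (6.08%) and 16 fell (8.84%) in posterior libraries. As deposited, the anterior split over all members was 4 higher and 44 lower (all-gene median −0.28). The anterior count was 32 without Hr96[1] replicate 2 or 3 and 35 without the other groups, and the posterior count was 32 without Hr96[1] replicate 3, 35 or 36 without control replicate 2 or 3, and 23 without the other groups.

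CR45714 (X:18480072-18481132) is a member only through the Hr96 strains, so its values are given as a description. It had 5.43, 7.66 and 6.3 scaled FPKM in anterior Hr96[1], against 0.29, 0.399 and 0.376 in controls (log2 2.45, SE 0.20). Posterior Hr96[1] had 5.58, 5.73 and 9.96, against 0.322, 0.337 and 0.597 (log2 2.48). Anterior Hr96[2x] had 7.2, 6.82 and 9.49, and posterior Hr96[2x] had 5.26, 3.42 and 5.64, against the same controls (log2 2.69 and 2.01). All 12 libraries of the Hr96 strains lay above all 18 y[1]w[1] libraries, none of which passed 1.03. It lies opposite Hayan, a serine protease gene of melanization, which stayed at or under 0.559 in all libraries.

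CR43242 (2L:23069005-23070724), near Spf45, averaged 2.45 deposited FPKM and likewise passed the threshold through the Hr96 strains, so its values are a description. It had 4.43, 6.56 and 6.41 scaled FPKM in anterior Hr96[1] and 4.48, 4.4 and 3.73 in anterior Hr96[2x], against 0.84, 0.629 and 0.855 in controls. Posterior values were 3.55, 4.19 and 4.38 and 3.36, 3.86 and 3.8, against 1.04, 1.44 and 0.963. The log2 differences were 1.92 and 1.23 in Hr96[1], and 1.55 and 1.12 in Hr96[2x].

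In the posterior midgut CR45205 had 9.09, 33.2 and 55.6 scaled FPKM, against 6.31, 1.3 and 0.749 in controls (log2 3.12, SE 0.79, adjusted p = 0.0104), and Npc2c differed by 3.36. The call was lost without Hr96[1] replicate 3 (adjusted p = 0.0741), control replicate 3 (0.0573) or the other groups (0.108). CR44431, opposite Mgstl, had 188, 237 and 469, against 149, 116 and 130 (log2 1.06, SE 0.27, adjusted p = 0.0113), and was lost without Hr96[1] replicate 3 (0.109), control replicate 2 (0.0518) or the other groups (0.172).

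In the anterior midgut CR46033 (3L:16663903-16664913), opposite the G protein alpha subunit gene Galphaf, had 5.8, 17.8 and 14.2 scaled FPKM, against 4.26, 3.23 and 4.24 (log2 1.35, SE 0.34, adjusted p = 0.0064), with Galphaf at 1.21. CR44907 (2L:20068793-20069318), opposite the ceramidase gene bwa, had 16.3, 5.17 and 5.7, against 2.64, 1.45 and 5.07 (log2 1.24, SE 0.40, adjusted p = 0.0289), while bwa was not called (0.44). The call of CR46033 was lost without Hr96[1] replicate 2 (0.0538) or the other groups (0.0775). That of CR44907 was lost without Hr96[1] replicate 1 (0.158), control replicate 1 or 2 (0.0738 and 0.146) and under 5 other settings (0.0512 to 0.159).

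CR45195 (3R:10876834-10877783), opposite the sorbitol dehydrogenase gene Sodh-2, had the largest fall of any called member in anterior Hr96[1]. It had 0.907, 0.153 and 0.542 scaled FPKM, against 10.5, 10.0 and 13.9 in anterior controls (log2 −3.04, SE 0.29, adjusted p = 8.43e-08), and 0.973, 0.241 and 0, against 9.46, 5.78 and 7.17 in posterior controls (log2 −2.63, adjusted p = 9.17e-07). Anterior Hr96[2x] had 2.97, 2.7 and 2.8, and posterior Hr96[2x] had 0.946, 0.975 and 0.977 (log2 −1.70 and −2.08, adjusted p = 0.00024 and 2.68e-05). Sodh-2 also fell in both strains and regions, by log2 1.54 and 1.27 in Hr96[1] and by 1.24 and 0.93 in Hr96[2x].

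CR45468 was near 0 in both strains. It averaged 2.89 deposited FPKM and passed the threshold only through the y[1]w[1] groups, so its values in the strains are a description. In anterior libraries it had 0.116, 0.116 and 0.115 scaled FPKM in Hr96[1] and 0.156, 0.0798 and 0.179 in Hr96[2x], against 5.27, 7.31 and 6.49 in controls (log2 −2.71 and −2.68). In posterior libraries it had 0.0799, 0.13 and 0, and 0.0505, 0.184 and 0.128, against 3.39, 4.04 and 3.3 (log2 −2.09 and −2.03). CG30486 on its other strand fell too, by log2 1.91 and 1.45 in Hr96[1] and by 2.02 and 1.38 in Hr96[2x]. Nearby on 2R, CR45140, opposite CG17574, had 0.839, 0.228 and 0.32 in anterior Hr96[1], against 7.53, 9.43 and 6.54 (log2 −2.60, SE 0.33, adjusted p = 5.64e-06), while CG17574 was not called (−0.13).

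CR42861 (X:13744928-13745476), near Pdcd4, had 4.33, 5.28 and 10.9 scaled FPKM in anterior Hr96[1] and 5.9, 7.58 and 14.5 in anterior Hr96[2x], against 26.7, 22.5 and 29.4 in controls. Posterior libraries held 3.84, 6.33 and 3.91, and 7.05, 7.23 and 6.33, against 23.7, 24.9 and 23.7. Its log2 differences were −1.88 and −2.17 in Hr96[1] (adjusted p = 3.19e-05 and 7.08e-06) and −1.48 and −1.68 in Hr96[2x] (0.000549 and 0.000178). The 12 libraries of the strains lay below all 18 others.

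CR45607 (X:18244892-18245180) lies near upd2, a cytokine gene of the JAK/STAT pathway. It had 3.29, 0 and 0 scaled FPKM in anterior Hr96[1], against 14.3, 9.67 and 10.2 in controls (log2 −2.91, SE 0.70, adjusted p = 0.00443), and 4.38, 5.79 and 0, against 23.9, 19.8 and 28.6 in posterior libraries (−2.90, adjusted p = 0.00692). In Hr96[2x] it had 1.51, 0 and 4.42 (log2 −2.36, adjusted p = 0.0208) and 6.54, 1.6 and 2.46 (log2 −2.61, adjusted p = 0.0151). The groups were apart in all 4 comparisons, and upd2 fell in posterior Hr96[1] by log2 1.74. The anterior Hr96[2x] call was lost without control replicate 1 or 3 (0.0699 and 0.0511), Hr96[2x] replicate 2 (0.127) or the other groups (0.069). The posterior call was lost in Hr96[1] without replicate 3 (0.0716) or the other groups (0.105), and in Hr96[2x] without replicate 2 (0.079), control replicate 3 (0.0618) or at a pseudocount of 0.25 (0.095).

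In Hr96[2x], 22 members rose and 34 fell in the anterior midgut, 7.77% and 12.0%, where 8.61% and 9.77% of all tested genes passed. In the posterior midgut 11 rose and 31 fell, 3.89% and 11%, against 4.13% and 7.08% of all tested genes. The median log2 differences of members, −0.01 in both regions, were near those of all genes, 0.01 and 0.00. Both regions called 35 members in the same direction (9 higher, 26 lower), 62.5% of the anterior and 83.3% of the posterior calls, against 41.8% and 68.6% over all tested genes (641 genes). The member counts include CR45714 and CR43310 among the shared rises and CR45468 among the shared falls. Each of these passed the threshold through groups where it was high. The 78 members with no coding exon found had 5 rises (6.41%) and 18 falls (23.1%) in anterior, and 4 (5.13%) and 16 (20.5%) in posterior libraries. The anterior split was 9 and 65 as deposited (all-gene median −0.40), and 36 members were called there without the other groups. Hr96[1] and Hr96[2x] share their control libraries, so their calls are not independent and were not set against each other.

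Some of the genes with large differences in Hr96[2x] did not pass the test in Hr96[1]. CR34335 (X:3545862-3546110), within CG32791, had 192, 128 and 113 scaled FPKM in anterior Hr96[2x], 22.1, 7.22 and 15.7 in anterior Hr96[1], and 15.1, 9.8 and 6.42 in controls. Posterior libraries held 204, 143 and 119 in Hr96[2x], 19.1, 8.4 and 7.2 in Hr96[1], and 17.1, 13.4 and 15 in controls. The log2 differences of Hr96[2x] were 3.70 (SE 0.72, adjusted p = 0.000916) and 3.24 (SE 0.72, adjusted p = 0.00387), and those of Hr96[1] were 0.43 and −0.47 with no call. The difference between the strains was not tested.

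CR44383 (X:15796477-15796897), a pseudogene 11 bases from CG32581, was listed at 0 in all 6 Hr96[2x] libraries. It had 10.8, 7.96 and 8.47 scaled FPKM in anterior Hr96[1] and 14.7, 7.74 and 8.24 in anterior controls, and 9.14, 4.95 and 3.41 and 11.7, 10.8 and 8.93 in the posterior midgut. The Hr96[2x] calls had adjusted p = 9.94e-08 and 7.14e-08. CG32581 was likewise close to 0 in Hr96[2x] and differed by log2 −3.80 in both regions.

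CR43310 (3R:25268009-25268464), a pseudogene, is a member only through posterior Hr96[2x] libraries, without which its mean is 1.67 deposited FPKM, so its values too are a description. It had 4.98, 1.87 and 27.8 scaled FPKM in anterior Hr96[2x], and was listed at 0 in the 3 anterior controls. Posterior values were 3.65, 9.45 and 21.2 in Hr96[2x], against 0, 0.902 and 0.643 in controls. Replicate 3 was the highest Hr96[2x] library in both regions.

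CR43952 (3L:6036490-6036915), near CG6462, rose in the anterior midgut, with 20.3, 34.7 and 30.7 scaled FPKM in Hr96[2x] and 3, 10.8 and 5.06 in controls (log2 2.13, SE 0.49, adjusted p = 0.00362). CR42532, a pseudogene on 2R, rose in the posterior midgut, with 33.4, 28.7 and 28.8 in Hr96[2x] and 6.91, 10.4 and 7.24 in controls (log2 1.79, SE 0.41, adjusted p = 0.00548). Among the falls, CR42868 had 0.514, 0 and 0 in anterior Hr96[2x], against 7.98, 6.68 and 9.26 (log2 −2.96, SE 0.45, adjusted p = 5.97e-05). CR14033 had 0.692, 1.68 and 0.678 in the anterior, against 7.51, 10.5 and 8.66 (log2 −2.32, adjusted p = 3.25e-06), and 0.602, 0.642 and 0.74 in the posterior midgut, against 9.38, 7.98 and 6.46 (log2 −2.42, adjusted p = 2.02e-06). These 4 genes did not overlap with controls in the named comparisons.

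**Figure D5:**
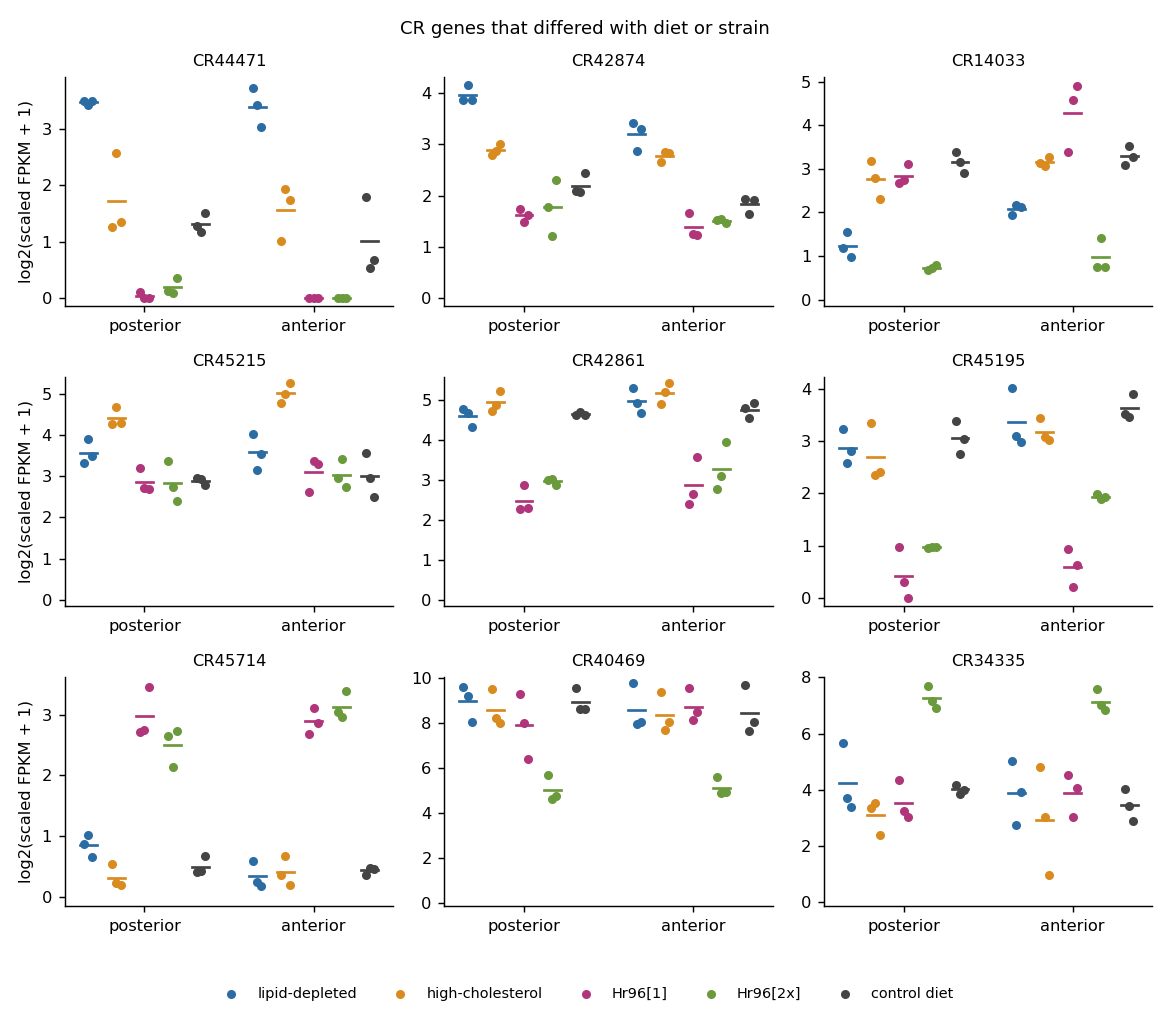
Log2(scaled FPKM + 1) in each library of 9 CR genes with large differences between conditions, posterior groups left of anterior groups, with bars at group means. CR44471 and CR42874 are highest on the lipid-depleted diet, CR45215 on high cholesterol, CR45714 is high and CR45195 and CR42861 are low in both Hr96 strains, and CR40469 is low and CR34335 high in Hr96[2x].

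The members nearest Hr96 were picked out after their values were seen. Of these genes, 7 lie within 970143 bases of Hr96, and CR46099, 232831 bases away, fell in all 4 comparisons, by log2 −1.03 anterior and −1.11 posterior in Hr96[1] (adjusted p = 0.00402 and 0.00331), and −0.80 and −1.10 in Hr96[2x] (0.0243 and 0.00377). CR46101 fell in anterior Hr96[1] (−1.45, adjusted p = 0.0223), and CR43310, 238658 bases away, is described above. The other 4 passed in none of these comparisons. CR46099 lies opposite CG10425 and CR46101 opposite Tnks, with 69.2% and 88.8% of their exonic bases under coding exons. Reads of these antisense RNAs and of the coding exons beneath them cannot be told apart. The anterior Hr96[2x] call of CR46099 was lost without control replicate 1 or 3 (0.0929 and 0.089) or Hr96[2x] replicate 2 or 3 (0.0671 and 0.0571), and its anterior Hr96[1] call with only the compared groups (0.0509). That of CR46101 was lost without control replicate 1 (0.0969), Hr96[1] replicate 2 or 3 (0.0794 and 0.119) or the other groups (0.0602).

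Marker levels differed between the strains and controls, and their part in the strain results was not tested. The 8 visceral muscle markers summed to 446 to 542 scaled FPKM in anterior and 731 to 872 in posterior Hr96[1], against 207 to 264 and 315 to 399 in controls. The tracheal markers (5 of 5 matched) summed to 9.83 to 12.5 in anterior Hr96[1], against 4.34 to 5.38. Of 9 enteroendocrine markers, 8 were matched and summed to 956 to 1288 in posterior Hr96[2x], against 199 to 356 in controls. Of 7 enterocyte markers, 6 were matched, Npc2e among them. Their sums, which follow the most abundant gene, were 5164 to 5665 in anterior and 10143 to 18726 in posterior Hr96[1], against 1283 to 2157 and 3287 to 4190. The mean log2 level of these 6 was 6.57 to 6.69 in anterior Hr96[1], against 6.09 to 6.56 in controls. In the posterior midgut that level was lower in each Hr96[1] library (lowest 7.01) than in any control (7.62 to 8.14). In Hr96[1] replicate 1 the ovary and germline markers summed to 132 in anterior and 95.8 in posterior libraries, against 1.25 to 11.6 in its other replicates, and the 7 Malpighian tubule markers to 565 and 489, against 198 to 234. Without that replicate 67 anterior and 68 posterior members were called in Hr96[1].

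The response of a member in the posterior midgut was also set against its response in the anterior. For the lipid-depleted diet, high cholesterol, Hr96[1] and Hr96[2x], limma called 0 members each, where 0.576%, 0.024%, 0.408% and 0.36% of all tested genes passed in either direction. Of the 283 members, 13, 8, 26 and 13 had an unadjusted p under 0.05. Calls in a single region therefore do not show that a member responds there alone. The count for Hr96[1] was 3 without anterior Hr96[1] replicate 1 and 1 without posterior control replicate 2, that for high cholesterol was 1 without posterior high-cholesterol replicate 1, and that for Hr96[2x] was 1 without posterior control replicate 2.

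In a few members replicate 1 was the highest or the lowest library of most groups. Replicate 1 was the highest of 3 in at least 9 of 10 groups for 8 members (2.83%, against 1.51% of all tested genes): CR44758, CR45789, CR44986, CR34335, CR45596, CR45969, CR45327 and CR40469, the last and CR45969 in all 10. It was the lowest in at least 9 for CR31144 and CR43628 (0.707%, against 1.27%). Between Hr96[2x] and control libraries of replicate 1 alone, CR40469 stood at 47.7 against 830 scaled FPKM and CR34335 at 192 against 15.1 in the anterior midgut.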

How the data were processed

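The authors deposited FPKM per gene with confidence limits and a status, in a table for each library, per the file headers. Reads passed through bcl2fastq 2.17.1.14, Bowtie2 2.2.9, TopHat2 2.1.1 and Cufflinks 2.2.1 against dm6 (BDGP6), per the submitters' processing notes. FPKM were divided by median-of-ratios factors over 8584 genes above 0 in all libraries, since libraries differed in composition, and set to log2(scaled FPKM + 1). The 8335 genes with a mean of at least 1 were fitted in limma 3.58.1 (R 4.3.3, trended variance) with 10 group means and 20 residual degrees of freedom. Tests were two-sided, with Benjamini-Hochberg adjustment over all tested genes in each of 13 comparisons, and the fit was tested on simulated data. A member was called at an adjusted p under 0.05, and each adjusted p here is from this limma fit unless an alternative is named. Tables were handled in Python 3.11.15 with pandas 2.3.3.

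Kinds of RNA, strands and overlaps come from the Ensembl annotation of BDGP6. Named genes are the 10 with the highest mean, up to 4 largest rises and falls among non-overlapping calls of each comparison (region calls may overlap), genes beside the threshold, hosts of small RNAs, known names and their coding neighbours. The members, lists and alternatives were chosen with earlier results of these data known.

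The alternatives were FPKM as deposited, quantile normalization, pseudocounts of 0.25 and 5, no filter, only the compared groups, each library left out, and the replicate number as a block. No sequence of these genes was used here.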

Additional observations from a re-analysis of the deposited data

How the results depend on the processing

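Depth is unknown and values near 0 are imprecise, so a missing call on a low gene says little. Of 109 calls of named members, 56 stayed called under every alternative tried, 36 were lost without at least 1 library and 51 under at least 1 other setting. Their direction turned in 5 cases, all between regions on FPKM as deposited and none called, at log2 0.11 (CR45874), 0.12 (CR31144), 0.0255 (CR45141), 0.15 (CR42491) and 0.20 (CR45184).

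Counts of called members moved as follows, and the cause was not tested except that fits of the compared groups alone have fewer samples. Between regions 215 members were called on FPKM as deposited and 46 in controls alone, against 138, and 129 to 143 without 1 library. For the lipid-depleted diet, the anterior count of 10 became 5 with only the compared groups and 4 to 10 without 1 library. The posterior count of 9 became 16 with quantile normalization, 14 at a pseudocount of 5, 4 without both control replicate 1 libraries (an alternative chosen after seeing the data, as these 2 had the highest fat body marker sums), and 4 to 12 without 1 library. For high cholesterol, the anterior count of 12 became 25 as deposited, 7 with no filter, 0 with only the compared groups (limma, 45 at an unadjusted p under 0.05) and 2 to 22 without 1 library. The posterior count of 3 became 1 with no filter, 0 with only the compared groups (limma, 34 unadjusted), 5 without both control replicate 1 libraries and 0 to 10 without 1 library. For Hr96[1], with only the compared groups, the anterior count of 56 became 35 and the posterior count of 55 became 23, with 32 to 67 and 32 to 68 without 1 library. For Hr96[2x], the anterior count of 56 became 36 with only the compared groups and 38 to 45 without 1 library, and the posterior count of 42 became 33 to 43.

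Differences between regions in a response, 0 called by limma for each, gave 1 for the lipid-depleted diet as deposited, 1 at a pseudocount of 5 and 2 with only the compared groups, and 1 for Hr96[1] with only the compared groups. Without 1 library they gave 0 for the lipid-depleted diet, 0 to 1 for high cholesterol, 0 to 3 for Hr96[1] and 0 to 1 for Hr96[2x].

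Libraries with the same replicate number from both regions of a condition deviated together in 13 of 15 pairs above a correlation of 0.1 (0.038 to 0.521, median 0.26). Over the 30 pairs with different numbers the correlation was −0.422 to 0.252 (median −0.17). Same-numbered libraries thus shared some variation. The labels do not say where it comes from, and the main fit did not pair them. With the replicate number as a block, 143 members were called between regions (162 with a block for each of the 15 pairs), 11 and 11 for the lipid-depleted diet, 14 and 3 for high cholesterol, 65 and 70 for Hr96[1] and 62 and 46 for Hr96[2x] (anterior and posterior), and 0 for the differences in response.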

Other observations

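Some named non-coding genes fall outside the CR symbols and were looked at after the values were seen. Of these, pncr009:3L, at a mean of 40.9 scaled FPKM, was lower in posterior than in anterior libraries (log2 −1.14, SE 0.12, adjusted p = 2.12e-08, limma). Hsromega, the heat-inducible nuclear RNA, averaged 112 and was not called between regions (log2 −0.11, adjusted p = 0.511). The dosage compensation RNAs roX1 and roX2, which act in males, averaged 0.0263 and 0.0178 in these female samples.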
